A study of Schizosaccharomyces pombe with 2 samples.

Results

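Convergent protein-coding genes with overlapping 3′ ends were examined in the fission yeast Schizosaccharomyces pombe. A pair was taken where a coding gene on the plus strand started first and ended at or past the start, but before the end, of a coding gene on the minus strand of the same chromosome. This gave 750 pairs, which held 1500 of the 5152 coding rows among 12684 annotated features, and no gene was in more than 1 pair. The study sequenced native RNA on nanopores from vegetative haploid h- cells labelled wt, which carried leu1-32 and pat1-L95G::kanR, an allele of the gene for the Pat1 kinase that holds back meiosis. Cells had grown in minimal medium, and their RNA, after removal of rRNA, was given poly(A) tails in vitro. The 2 libraries are biological replicates of 1 group, and no other condition was sequenced. The comparisons below are therefore between the genes of a pair, between kinds of gene pairs and between the libraries.

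Genes that face each other with their 3′ ends are called convergent. An RNA polymerase that has transcribed such a gene runs toward its neighbour, and where the transcripts overlap their 3′ parts are complementary to each other and could form double-stranded RNA. In fission yeast, convergent genes are known as places where cohesin gathers and where RNA interference factors, which act on double-stranded RNA, have been studied. The 3′ end of an mRNA is made by cleavage and polyadenylation, directed by short signals in the 3′ untranslated region (UTR), of which the hexamer AATAAA is the best known.

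The shortest overlaps can be read whole, and the following set was chosen to show what a shared 3′ end looks like. The sequences come from RefSeq assembly ASM294v3 and are written 5′ to 3′ on the plus strand, with capitals for AATAAA and for TTTATT, which is AATAAA read on the minus strand. The first pair, psd2 (a phosphatidylserine decarboxylase) and mss51, was chosen after its sequence was seen, since it was the 1 pair among the 87 with at most 30 nt of overlap that had the hexamer on both strands within the overlap. The other pairs shown are described below for their levels or roles.
psd2/mss51, I:4160598-4160623, overlap of 26 nt: ttgacacccAATAAATTTATTTTATT
thf1/fkh1, II:631697-631710, overlap of 14 nt: gtgcaagaaaatat
arb2/crb3, I:2310271-2310294, overlap of 24 nt: ttttccaatgagattataacaaaa
In psd2/mss51 the AATAAA of the plus strand lies end to end with a hexamer of the minus strand. A further minus-strand hexamer starts, as written here, on the last base of that hexamer. The other overlaps shown hold AATAAA on neither strand. Their genes could still carry it outside the overlap. The next set shows 30 bases around the last hexamer of 3 genes, on the strand of each gene, with AATAAA in capitals. Of these, arb2 is from a pair shown above, while ubi1 and vma3 are from pairs described below.
ubi1, plus strand, I:3969517-3969546: agcaaaattcgagcAATAAAaaatacttgt
vma3, plus strand, I:4955628-4955657: ataaaatcaatcatAATAAAggcacaatat
arb2, plus strand, I:2310250-2310279: aattcaacatatttAATAAAattttccaat
The hexamer ended 22 bases before the annotated 3′ end in ubi1, 28 in vma3 and 25 in arb2. It lay inside the overlap in ubi1, ran across the start of the overlap in vma3 and stood just before the overlap in arb2.

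Over all members, AATAAA was found on the gene's own strand within the last 50 bases of 294 of 1500 genes (19.6%), against 14.9% of the 3647 other coding genes on the chromosomes and 16.3% of all coding genes. It was found on the opposite strand of that window in 10.6% of the members and 12.4% of the other genes. The variant AATGAA was on the gene's strand in 8.73% of the members and 6.85% of the other genes, and on the opposite strand in 5.6% and 5.07%. Where a member had AATAAA, the median distance to the 3′ end was 19.5 bases (quartiles 13 and 29). In genes of adjacent convergent pairs without overlap, the share with AATAAA on the gene's strand was 16.8%. With a window of 100 bases the shares on the gene's strand were 31.6% in members and 22.5% in other coding genes. These shares describe letters in the annotated sequence and were not tested. A match is not a mapped cleavage site. In genes whose annotated 3′ UTR is shorter than the window, the window also holds coding sequence. The median 3′ UTR was 262 nt in members and 231 nt in the other coding genes, and the shares were not adjusted for this.

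Pairs lay on all 3 chromosomes, with 341 on chromosome I, 286 on II and 123 on III, and members made up 29.1%, 30.5% and 26.5% of the coding genes there. In 734 pairs the genes were consecutive coding genes, and in 16 another coding gene started between them. A further 201 opposite-strand pairs, in which 1 gene lies wholly inside the other, were not taken. All 1500 members matched the RefSeq annotation by identifier and by both coordinates.

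The overlaps were 1 to 6260 nt long, with a median of 127.5 nt (quartiles 62 and 568.75), and covered a median of 10.3% of the shorter gene. They summed to 362182 nt. Most did not reach coding sequence. In 442 pairs (58.9%) the overlap held none, and its median length was 75 nt. In 133 pairs it held coding sequence of the minus gene only (median 457 nt) and in 90 of the plus gene only (median 722.5 nt). In 76 pairs coding sequence of each gene lay against non-coding sequence of the other (median 1556.5 nt). In 9 pairs coding sequence of both strands lay on the same bases (median 1277 nt). The plot of overlap lengths shows a peak near 100 nt made mainly of overlaps without coding sequence and another, lower one above 1000 nt made of overlaps that reach it.

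**Figure D1:**
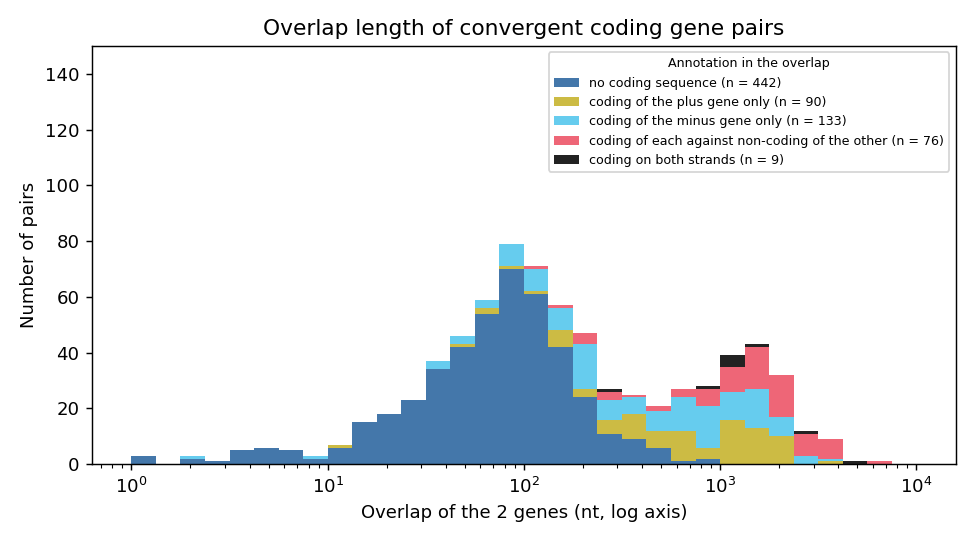
Number of pairs by overlap length in nt (log axis), stacked by what the annotation places in the overlap. The 442 overlaps without coding sequence have a median of 75 nt, while the 76 in which each gene's coding sequence lies against non-coding sequence of the other have a median of 1556.5 nt.

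Base composition differed along with this content. The median GC content of the overlaps was 25.8% where they held no coding sequence, 34.1% with coding sequence of the minus gene only, 35.6% with that of the plus gene only and 38.2% with coding sequence on both strands. The annotated 3′ UTR had a median of 262 nt in members and 231 nt in the other coding genes, and 181 nt in genes of adjacent convergent pairs without overlap. Members were also longer genes, with a median span of 1886.5 nt, against 1711 nt in the other coding genes. UTR length is part of what makes genes overlap, so these lengths follow in part from how the pairs were chosen.

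In 63 pairs an annotated transcript passed the whole coding region of its partner. The plus gene did so in 36 pairs and the minus gene in 31, and in 4 pairs both did. These 4 were slx1/erg8, bpl1/lsm4, urm1/dbl5 and taf8/SPCC1259.16. bpl1 encodes a biotin-protein ligase and lsm4 a protein of the U6 snRNP, and their overlap of 2847 nt lay in genes of 2934 and 2864 nt. bpl1 held 149 and 158 reads in replicates 1 and 2, and lsm4 held 321 and 357. slx1, which encodes the catalytic subunit of a structure-specific endonuclease, held 20 and 29 reads, against 195 and 218 for erg8, the gene of phosphomevalonate kinase in the sterol pathway. Each of these 4 pairs thus had reads for both genes in both libraries. The counts do not show how far single molecules reached into an overlap.

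The libraries held 12871729 and 12579850 counts over all features, of which 3379121 and 3315606 fell on coding genes, and members took 17.7% and 18.1% of these. Reads were found in both libraries for 1497 members, and 2 uncharacterized genes, SPBPB21E7.10 and SPBPB2B2.18, had none in either. At least 10 reads in sum were reached by 1485 members (99.0%), against 94.8% of the other coding genes, and both genes reached this in 736 pairs. Markers were counted as a check of the label. The M-cell genes mfm2 (2603 and 2733 reads) and mam1 (567 and 577) and the P-factor receptor gene mam2 (632 and 623) were read often, the P-cell gene map2 had 2 and 0 reads, the meiotic genes mei4 (12 and 10) and ssm4 (11 and 10) had few, and act1, the actin gene, had 10993 and 10797. Strand was kept in the counts to a degree that could be checked. Of 3144 features that lie inside a coding gene on the opposite strand, 107 held more reads than the gene around them in both libraries, which counts made without strand would not give. In 57 members, in 56 pairs, a feature of the same strand overlapped the gene and had a count of at least 50% of the gene's, so reads may have been counted in both.

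Levels are given as CPM per kb, the count scaled to a library total of 1000000 over all features and divided by the gene span in kb, introns included. The median level of the members was 4.64 CPM per kb in replicate 1 and 4.96 in replicate 2, against 4.96 and 5.28 in the other coding genes and 6.20 and 6.58 in genes of adjacent convergent pairs without overlap. Plus genes had medians of 4.71 and 5.12 CPM per kb and minus genes 4.51 and 4.92. In reads, the order of members and other coding genes was the opposite, with medians of 124.5 and 130 reads in members and 121 and 127 in the other coding genes. The difference of the median log2(CPM per kb + 1), members minus other coding genes, was -0.077 over the mean of the libraries, -0.176 among genes with at least 10 reads in sum and 0.034 without division by length, so its size and sign depended on these choices. The upper quartile of the members was 10.9 and 11.7 CPM per kb, against 14.2 and 14.8 in the other coding genes, so the upper part of the range was lower in the members. None of these differences was tested, since genes are not replicates.

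The levels of the genes of a pair were nearly unrelated. Over the 750 pairs, log2(CPM per kb + 1) of the plus gene and of the minus gene had a Pearson r of -0.053 in replicate 1 and -0.050 in replicate 2 and a Spearman rho of -0.020 and -0.012. All points of one correlation share a library, and no p-value is given. Over 562 adjacent convergent pairs without overlap r was 0.002 and 0.011, over 2346 adjacent tandem pairs 0.066 and 0.066, and over 1400 adjacent divergent pairs 0.134 and 0.133. Tandem and divergent pairs were taken whether or not their genes overlapped. Ranking the pairs into 5 groups of 150 by the plus gene in replicate 1 took the median level of the plus gene through 1.41, 2.82, 4.71, 9.05 and 30.3 CPM per kb, while that of the minus partner was 4.32, 4.47, 5.29, 4.16 and 4.33 CPM per kb. The partner of a low gene was thus at about the same level as the partner of a high one. The same held when pairs were ranked by the minus gene, with partner medians of 4.52 to 4.87 CPM per kb in replicate 1.

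**Figure D2:**
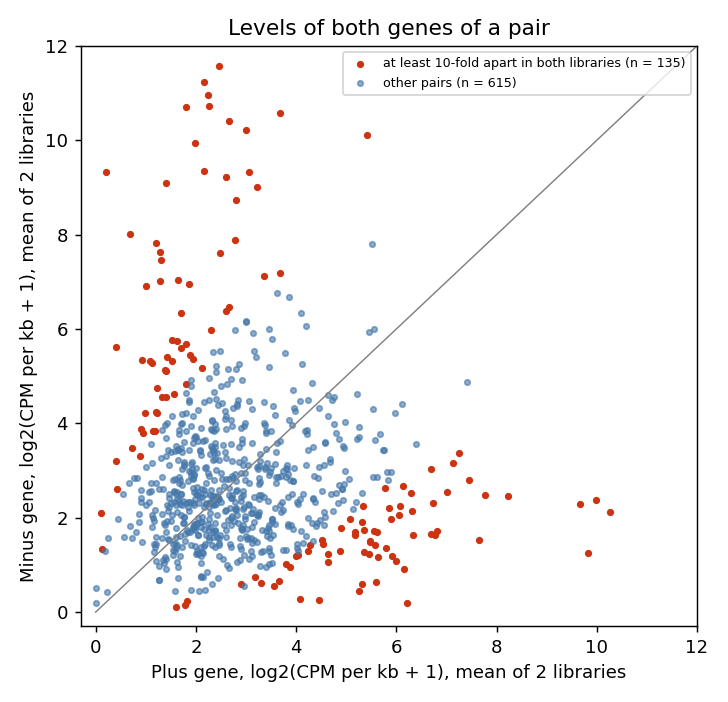
Level of the minus gene against that of the plus gene in each of the 750 pairs, both as log2(CPM per kb + 1), mean of 2 libraries; the line marks equal levels. The 135 pairs at least 10-fold apart in both libraries lie far to either side of the line, and the others form a cloud without a slope along it.

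Within a pair, the genes commonly differed by more than 2-fold. The median absolute log2 ratio of plus over minus gene, on the log2(CPM per kb + 1) scale, was 1.32 in replicate 1 and 1.31 in replicate 2, against 1.89 and 1.86 in convergent pairs without overlap, 1.41 and 1.42 in tandem pairs and 1.33 and 1.28 in divergent pairs. In CPM per kb, 291 pairs (38.8%) were at least 4-fold apart in both libraries, and 52.3% of convergent pairs without overlap were. At least 10-fold, the count was 135 pairs (18.0%), against 31.3%, and at least 100-fold it was 24 pairs (3.2%), against 9.07%. In tandem pairs the shares at these limits were 43.2%, 23.1% and 5.75%, and in divergent pairs 41.4%, 22.1% and 5.29%, nearer to the overlapping pairs. In read counts, without division by length, 120 overlapping pairs were at least 10-fold apart in both libraries and 13 at least 100-fold. Division by span thus widened the largest gaps, and shares in read counts were not taken for the other kinds of pairs. The differences were not tested.

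The ratio was steady between the libraries. The same gene was higher in both libraries in 718 pairs (95.7%, with 97.9% in convergent pairs without overlap, 95.4% in tandem and 95.9% in divergent pairs), the plus gene in 372 and the minus gene in 346. The libraries differed by a median of 0.22 in the log2 ratio of a pair, and in 655 pairs the gap between the genes was larger than the difference between the libraries. The 32 pairs in which the higher gene switched had ratios close to 1 in most cases, with an absolute log2 ratio of 1.35 at most in either library. In the plot of both libraries, pairs lie along the line of equal ratios from -9.38 up to 8.62, a range set by genes for ribosomal proteins.

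**Figure D3:**
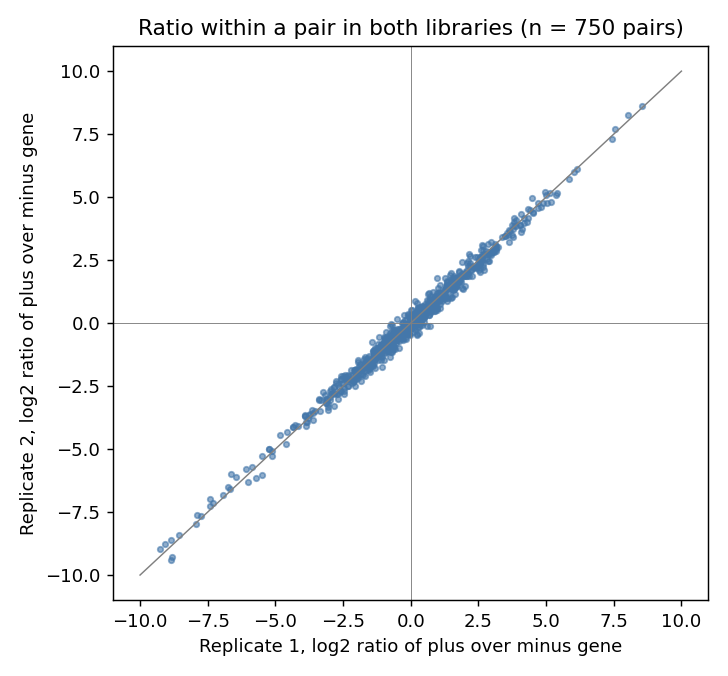
Log2 ratio of plus over minus gene in replicate 2 against that in replicate 1, from log2(CPM per kb + 1), for the 750 pairs; the diagonal marks equal ratios. In 718 pairs the same gene was higher in both libraries.

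The highest ratios were those of a ribosomal protein or ATPase gene on the plus strand. rpl2102, which encodes ribosomal protein eL21, held 7041 and 7357 reads in replicates 1 and 2, while apc5, a scaffold of the anaphase-promoting complex that marks mitotic regulators for destruction, held 53 and 53. Per length, rpl2102 was at 875 and 936 CPM per kb and apc5 at 1.35 and 1.38 CPM per kb, a 649-fold and 678-fold difference across an overlap of 62 nt (I:3401091-3401152). The libraries were close to each other at each gene and far from the values of the partner. ubi1, a fusion of ubiquitin with ribosomal protein L40, held 8925 and 8566 reads, and mct1, a malonyltransferase gene, held 89 and 68, a 330-fold and 415-fold difference in CPM per kb. rps3001 (ribosomal protein eS30) held 6177 and 7020 reads, and fcp1, the phosphatase of the RNA polymerase II tail, held 151 and 156. In both pairs the lower gene was still read in both libraries at well above 10 reads, so its level could be measured.

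vma3, which encodes the proteolipid of the vacuolar proton pump and is no ribosomal gene, held 2800 and 2748 reads, and SPAC1B3.15c, annotated as a vitamin H transporter, held 61 and 62, a 107-fold and 104-fold difference in CPM per kb.

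The lowest ratios had a ribosomal protein gene on the minus strand. SPBC23G7.14, an uncharacterized gene, held 87 and 98 reads, against 19688 and 17524 for rpp202, the gene of the stalk protein P2, and the log2 ratio was -9.13 ± 0.21 (SD, n = 2). ltv1, a ribosome biogenesis gene, held 80 and 75 reads, while rpl4102 (ribosomal protein eL41) held 7565 and 9923, a 583-fold and 815-fold difference in CPM per kb across an overlap of 7 nt. abz2, the gene of aminodeoxychorismate lyase in folate synthesis, held 30 and 42 reads, against 10301 and 10673 for rps3002 (eS30), and here coding sequence of both strands lay in the overlap of 247 nt. In all 3 pairs the ranges of the genes were far apart in both libraries. trs23, a subunit of the TRAPP vesicle tethering complex, held 32 and 36 reads, and rpp102 (stalk protein P1) held 17993 and 16660. new14 held 1 and 0 reads and rps1701 (ribosomal protein eS17) held 7101 and 7535. In CPM per kb, rps1701 was 1920-fold higher in replicate 1 (95% interval 345 to 75900 from the exact Poisson limits of 1 read, counting error only), and in replicate 2, with new14 set to a floor of 3 reads, it was at least 680-fold higher. The 1 read of new14 may be that of SPNCRNA.317, a non-coding feature of the same strand with 1 and 0 reads. Many ribosomal protein genes of fission yeast have a near-identical paralog, and how reads with several mapping positions were counted is not given in the sources used here, so the counts of the ribosomal genes named here are uncertain.

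**Figure D4:**
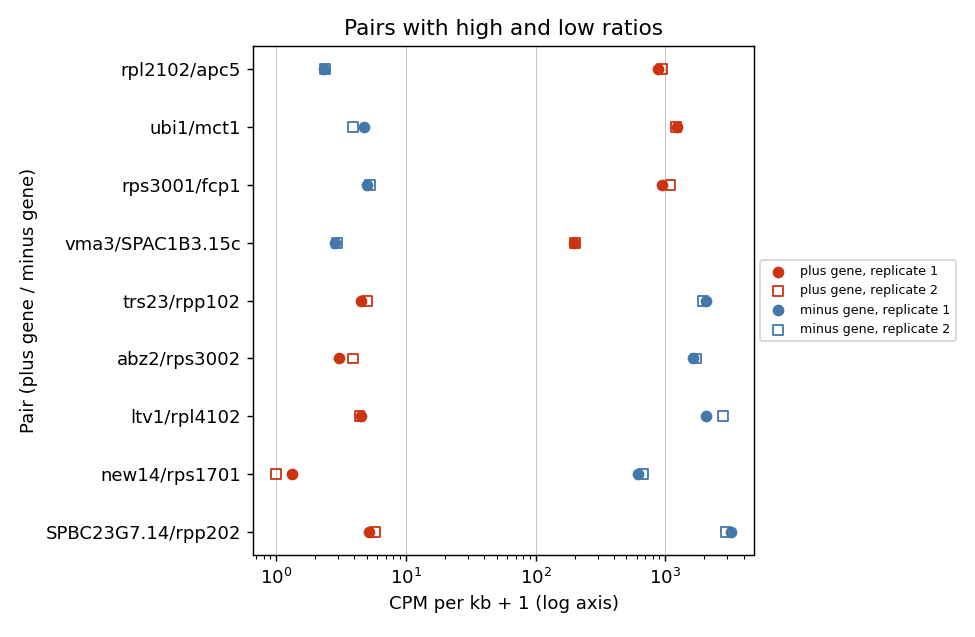
CPM per kb + 1 (log axis) of the plus gene and the minus gene in both libraries, for pairs with the highest ratios (the 4 upper rows) and the 5 with the lowest (lower rows). The values of replicates 1 and 2 lie close together for each gene, while the genes of a pair are more than 100-fold apart in CPM per kb.

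At the other end, 5 pairs had genes at nearly the same level per length. slr1, an RNA-binding protein gene, held 173 and 174 reads, and sec72, a gene with a Sec7 domain, held 374 and 379. Per length these were 5.26 and 5.41 CPM per kb for slr1 and 5.14 and 5.33 CPM per kb for sec72, whose ranges overlapped. ppr1, which encodes a PPR-repeat protein, and egt1, which encodes an ergothioneine synthesis enzyme, shared 1815 nt and were at 3.51 and 4.05 CPM per kb for ppr1 and 3.45 and 3.93 CPM per kb for egt1. arh1, a ferredoxin reductase gene of iron-sulphur cluster assembly, was at 4.15 and 4.77 CPM per kb and cbc2, annotated as a subunit of the nuclear cap-binding complex, at 4.62 and 4.22 CPM per kb. The remaining pairs with a ratio nearest 1 were dhm2/pex19, with log2 ratios of 0.15 and -0.13, and hul5/dbs2, with 0.07 and -0.03. Much of the count of hul5 (106 and 93 reads) may come from SPAC167.06c, a coding gene of the same strand that overlaps it and held 104 and 97 reads.

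The 5 pairs whose lower gene was at the highest level were the following. hem1, which encodes 5-aminolevulinate synthase of haem synthesis, was at 42.4 and 50.2 CPM per kb, and its partner SPAC2F3.18c, annotated as ribonuclease kappa-like, at 65.0 and 60.1 CPM per kb. lys12 (homoisocitrate dehydrogenase of lysine synthesis) was at 43.9 and 41.4 CPM per kb and rpe1 (ribulose phosphate epimerase of the pentose phosphate pathway) at 58.5 and 61.8 CPM per kb. thf1, an enzyme of folate one-carbon metabolism, was at 42.2 and 47.1 CPM per kb, against 231 and 211 CPM per kb for fkh1, an FKBP-type prolyl isomerase. In these 3 pairs the lower gene was at more than 40 CPM per kb, far above the median of all members. ifa38, a ketoreductase gene, was at 44.2 and 38.7 CPM per kb, against 1095 and 1119 CPM per kb for rpl901 (ribosomal protein L9). dpm3, a subunit of dolichol-phosphate mannosyltransferase, was at 176 and 163 CPM per kb, and tda1, threonine ammonia-lyase, at 27.8 and 28.8 CPM per kb. The overlaps of these 5 pairs were 14 to 142 nt.

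The longest overlaps joined large genes read at low levels. rad3 encodes the ATR checkpoint kinase and swi1 a subunit of the complex that protects replication forks, and they shared 6260 nt (II:907370-913629) of spans of 9446 and 7410 nt. rad3 held 167 and 168 reads and swi1 held 74 and 108, or 1.37 and 1.41 CPM per kb for rad3 and 0.776 and 1.16 CPM per kb for swi1. msw1, a tryptophan-tRNA ligase gene, and peg1, which encodes a microtubule-associated protein of the CLASP family, shared 4831 nt with coding sequence on both strands. msw1 held 159 and 170 reads and peg1 held 86 and 93, but msw1 overlaps SPNCRNA.216 on its strand, which held 99 and 119 reads. rad3 was above swi1, and msw1 above peg1, in reads and in CPM per kb in both libraries. esf2, a gene of the U3 snoRNP, held 48 and 52 reads, against 235 and 226 for lvs1, which encodes a beige-family protein. vid21, the scaffold of the NuA4 histone acetyltransferase, held 81 and 89 reads, and sws2, a mitochondrial ribosomal protein gene, held 142 and 147. rik1, a part of the CLRC complex that methylates histone H3 in heterochromatin, held 99 and 105 reads, against 30 and 22 for SPCC11E10.09c, an alpha-amylase-like gene. All 10 genes were below the median CPM per kb of the members.

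The shortest overlaps were those of the 3 pairs whose ends share a single position, mug170/pal1, pma2/spt2 and ubc7/yar1, and pairs such as pus4/irc3 and rlp7/rad9 with 2 nt. pma2, a proton ATPase gene, held 2 and 4 reads, while spt2, a histone chaperone gene, held 78 and 70. rlp7, a ribosome biogenesis gene, held 815 and 894 reads and rad9, a checkpoint clamp gene, held 35 and 24, a 36.8-fold and 58.9-fold difference in CPM per kb. ubc7, a ubiquitin-conjugating enzyme gene, held 448 and 442 reads and yar1 held 121 and 156, but SPNCRNA.1475, which overlaps ubc7 on its strand, held 386 and 330. mug170 held 31 and 43 reads against 156 and 157 for pal1, and pus4 held 100 and 108 against 66 and 69 for irc3. On the other side of the limit, 10 convergent pairs abutted with no base between or shared and were not members. Among them rpl2801 held 6908 and 6271 reads against 34 and 39 for hsk1, and saf5 held 88 and 85 against 135 and 162 for mrpl1.

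Longer overlaps went with lower levels of both genes. In the 87 pairs with an overlap of 1 to 30 nt, the median of the lower gene was 3.41 and 3.55 CPM per kb in replicates 1 and 2, and that of the higher gene 13.4 and 14.4 CPM per kb. In the 137 pairs of 1001 to 6260 nt, the medians were 1.62 and 1.82 CPM per kb for the lower gene and 3.91 and 4.38 CPM per kb for the higher gene. The 3 bins between held 226, 197 and 103 pairs, and the medians of the higher gene, 12.1, 10.4 and 8.39 CPM per kb in replicate 1, decreased from bin to bin. Across pairs, Spearman's rho of overlap length was -0.284 and -0.291 with the level of the lower gene, -0.330 and -0.326 with that of the higher gene and -0.160 and -0.145 with the absolute log2 ratio. On the log2(CPM per kb + 1) scale the longest overlaps also had the smallest gaps, with a median absolute log2 ratio of 0.90 and 0.86. The pseudocount of 1 makes ratios of low genes smaller, and levels were lowest in that bin. Its part in the smaller gaps was not tested.

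**Figure D5:**
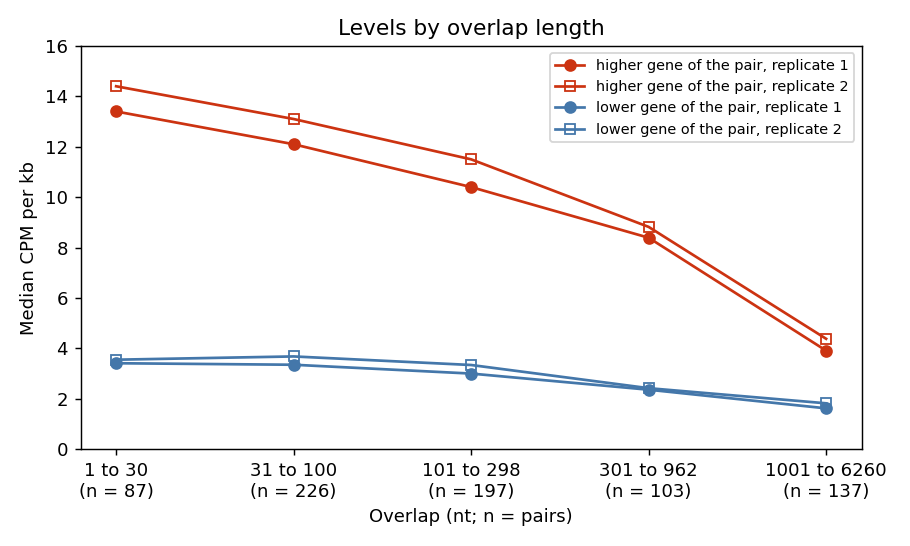
Median level in CPM per kb of the higher and the lower gene of a pair in 5 bins of overlap length, in both libraries; n is the number of pairs in a bin. The higher gene goes down to 3.91 and 4.38 CPM per kb in overlaps above 1000 nt, against 13.4 and 14.4 in overlaps of up to 30 nt.

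Other properties moved with overlap length. The median gene span was 2536.5 nt in the bin of the longest overlaps and 1605.5 nt in that of the shortest, and overlap length had a rho of 0.310 with the summed span of the genes. In reads, without division by length, rho with the lower gene was -0.178 and -0.181. The GC content of the overlap had a rho of 0.639 with its length, and AATAAA on both strands within the overlap was found in 1.15%, 4.42%, 19.8%, 44.7% and 67.2% of the pairs from the shortest bin to the longest, where the longer sequence has more places for a match. The part of gene span in the lower levels was not tested.

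The libraries were also compared gene by gene, by an exact binomial test, two-sided, of how the reads of a gene were split between them, with the library totals as the expected split and Benjamini-Hochberg adjustment over 6752 features (those with 10 or more reads; threshold 0.05). Of 1485 members tested, 44 (2.96%) were called, against 4.19% of all features and 4.63% of the other coding genes. Of the 44, 13 were higher in replicate 1 (2.18% of all features were) and 31 in replicate 2 (2.01%). With TMM factors or DESeq2 size factors 39 members were called, of which 25 were higher in replicate 1 and 14 in replicate 2, and 27 were among the 44. These factors moved each log2 ratio by 0.06, so which members passed, and the balance of directions among them, depended on the scaling. Called members differed little in size, by a median of 0.28 on the log2 scale in either direction. The test compares these libraries, and the biological coefficient of variation between them (edgeR common dispersion) was 5.07% in members and 5.09% in other coding genes.

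Among called members with at least 100 reads in sum, those with the largest change were tif1102, an eIF1A-like gene, with 65 and 125 reads (log2 ratio of replicate 1 over replicate 2 -0.97, exact binomial test, adjusted p = 0.000277), ddr48 with 129 and 68 reads (0.89, adjusted p = 0.00128), mrs6, a Rab escort protein gene, with 57 and 100 reads (-0.84, adjusted p = 0.0128), coq3 of ubiquinone synthesis with 109 and 178 reads (-0.74, adjusted p = 0.000845) and usp102 of the U1 snRNP with 62 and 101 reads (-0.73, adjusted p = 0.0417). Their partners prp2, avl9, SPBC15C4.04c, vps60 and vps25 were not called. The count of mrs6 may include reads of SPBC15C4.02, a coding gene of its strand with 226 and 242 reads, and that of avl9 reads of SPNCRNA.831 and SPNCRNA.832. The calls fell in 43 pairs, and in 1 pair, thf1/fkh1, both genes were called. thf1 had 2015 and 2197 reads (log2 ratio -0.16, adjusted p = 0.0123) and fkh1 had 2922 and 2598 (0.14, adjusted p = 0.0142), so they differed in opposite directions by small amounts under library totals. Over the 544 pairs in which both genes had at least 100 reads, the log2 ratios of replicate 1 over replicate 2 of the plus and of the minus gene had a Pearson r of -0.008, against 0.014 over 379 convergent pairs without overlap.

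Genes of processes linked in the literature to convergent transcription were looked up among the members. Of 30 genes of RNA interference, heterochromatin and cohesin, 9 (30.0%) were members, near the 29.1% of all coding genes on the chromosomes. Between the libraries 0 of the 30 were called, against 4.19% of all features (3 had an unadjusted p under 0.05, and 0 were called with TMM factors or DESeq2 size factors). At that share a list of this size could well hold 0 calls, so the count does not set the list apart. The median level was 1.30 and 1.45 CPM per kb in the 9 members and 1.77 and 1.83 CPM per kb in the whole list, and 4.64 and 4.96 over all members. dcr1, which encodes Dicer, the nuclease that cuts double-stranded RNA, held 105 and 102 reads, against 3 and 4 for the septin gene spn6, with which it shares 1903 nt (III:1504949-1506851). hrr1, a helicase of the RNA-directed RNA polymerase complex, held 34 and 60 reads, and its partner dms1 held 119 and 119. arb2, an argonaute-binding protein gene, held 22 and 18 reads and its partner crb3, a gene of the rixosome, 286 and 276, a 10.3-fold and 12.1-fold difference in CPM per kb across the 24 nt given above. Both arb2 and hrr1 were thus the lower gene of their pair, and dcr1 the higher.

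In the same list, mug30 held 58 and 47 reads against 12 and 21 for stc1, the linker of CLRC and Argonaute, which per length was 1.36 and 1.13 CPM per kb for mug30 and 1.03 and 1.84 CPM per kb for stc1, so the higher gene switched between the libraries. ers1, an RNA silencing factor, held 34 and 37 against 64 and 67 for ipi1. mit1, the remodeller of the SHREC complex, held 37 and 61 reads and its partner nbr1 held 50 and 48, or 0.66 and 1.11 CPM per kb for mit1 and 1.83 and 1.79 CPM per kb for nbr1, which was higher per length in both. rad21, the cohesin subunit that separase cuts at anaphase, shared 962 nt with the F-box gene pof3. rad21 held 77 and 62 reads and pof3 held 18 and 42, and pof3 was called between the libraries (log2 ratio -1.23, exact binomial test, adjusted p = 0.0425), the 1 called member that differed at least 2-fold. The higher gene per length was rad21 in replicate 1 (1.79 CPM per kb, against 0.70 for pof3) and pof3 by a small margin in replicate 2 (1.47 CPM per kb for rad21, against 1.67). SPBC16A3.12c, a lipase gene, held 173 and 164 reads, against 72 and 69 for eso1, the cohesin acetyltransferase.

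Of 22 genes of 3′ end formation and transcription termination, 5 (22.7%) were members. In the binomial test 0 of the 22 were called, against 4.19% of all features (3 had an unadjusted p under 0.05, and 0 were called with TMM factors or DESeq2 size factors). Here too the list is too short for 0 calls to set it apart. The median level was 2.97 and 3.75 CPM per kb in the 5 members and 4.59 and 5.09 CPM per kb in the list. rnh201, a subunit of RNase H2, was at 2.97 and 3.80 CPM per kb and pcf11, a cleavage and termination factor, at 2.97 and 3.13 CPM per kb, with 52 and 65 reads for rnh201 and 134 and 138 for pcf11. ngl1 held 66 and 84 reads and its partner cft2, a subunit of the cleavage and polyadenylation factor, held 92 and 119. cnt6 held 181 and 175 reads, and dhp1, the nuclear exonuclease that degrades RNA downstream of the cleavage site, held 270 and 307. In these 3 pairs the genes were less than 1.5-fold apart in CPM per kb in both libraries. iss1, a Fip1-like polyadenylation factor, held 182 and 211 reads against 24 and 18 for cum1. sly1, which encodes a SNARE-binding protein, held 223 and 244 reads, and ppn1, of the cleavage and polyadenylation factor, held 87 and 85. These last pairs were 3.55-fold and 5.49-fold apart in CPM per kb for iss1/cum1 and 4.02-fold and 4.50-fold apart for sly1/ppn1.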

How the data were processed

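Direct RNA sequencing of 2 biological replicates was used. Per the study's methods, the authors base-called reads with dorado and mapped them with minimap2 in splice mode. Which tool made the counts, with which strand setting and on which build, is not given in the sources used here. The authors deposited whole-number read counts per feature, without normalization, and these deposited values were treated as estimated counts, of which rounding changed 0. Column names stood 1 cell to the right of their data, so columns were taken by position. Coordinates of all members equalled those of RefSeq ASM294v3, which gave symbols, coding regions and sequences.

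Members and gene lists were chosen with earlier results of these data known. CPM was computed over all features (scale 1000000) and divided by span in kb, and log2 values used a pseudocount of 1. Ratios are plus over minus gene. Folds set a gene at 0 reads to 3 reads, and a pair counted only when both libraries passed. Log2 ratios between libraries added 0.5 to each count. Correlations and shares over genes or pairs carry no p-value. Neighbours were consecutive coding genes. Only the convergent comparison set was limited to pairs without overlap, and tandem and divergent sets were not cleared of overlapping neighbours or of member genes. The binomial test was tested on simulated data that held counting error only, without variation between replicates, so the simulation does not cover such variation. Python 3.11.15, scipy 1.17.1, pandas 2.3.3, edgeR 4.0.16 and DESeq2 1.42.0 were used.

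Depth was 12871729 and 12579850 counts, and intervals cover counting error only. Pairs named were the 5 longest and 5 shortest overlaps, the 5 with the highest level of the lower gene, the 5 highest and 5 lowest ratios (at least 100 reads in the higher gene; 1 of these pairs is not reported here), the 5 ratios nearest 1 (at least 100 reads in both), pairs with a listed gene, and the 5 called members with the largest change. psd2/mss51, pairs passing a whole coding region, pof3, thf1/fkh1 as a called pair, and the pairs at the limit of the rule were added after their values were seen. Alternatives were other pseudocounts, count minimums, scalings, no division by length, other overlap limits and each library left out. The P-factor receptor gene mam2 was among the markers.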

Additional observations from a re-analysis of the deposited data

How the results depend on the processing

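The number of pairs was 600 with a minimum overlap of 50 nt, 289 with 200 nt and 951 with contained pairs also taken. The difference of the median log2 level, members minus other coding genes, was -0.077, and was -0.091 with pseudocount 0.1, -0.046 with pseudocount 5, -0.176 with at least 10 reads in sum and 0.034, of the opposite sign, without division by length. The median level of members was 4.8 CPM per kb, 18.2 with the total of coding features and 10 CPM without division by length. Pearson's r was -0.052 over the mean of the libraries, and was -0.032 and -0.065 with pseudocounts 0.1 and 5, -0.058 and -0.044 with at least 10 and 100 reads in both genes and -0.063 without division by length. Spearman's rho was -0.016, and was -0.030 and 0.013 with these minimums and -0.046 without division by length. The median absolute log2 ratio was 1.31, and was 1.59 with pseudocount 0.1 and 1.22 without division by length. At 4-fold, 291 pairs passed in place of 135, and at 10-fold without division by length 120 passed. The rank correlation of overlap length with the lower gene was -0.288, and was -0.299 with at least 10 reads in both genes, -0.180 without division by length and -0.240 with overlap as a share of the shorter gene. AATAAA was in 31.6% of members with 100 bases. Leaving out each library gave 4.64 to 4.96 for the median level, -0.079 to -0.075 for its difference, -0.053 to -0.050 for r, -0.020 to -0.012 for rho, 1.31 to 1.32 for the median absolute ratio and -0.291 to -0.284 for the rank correlation with overlap.

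Alternatives chosen after seeing the data were overlaps without coding sequence, which gave r -0.103, rho -0.095, a median absolute log2 ratio of 1.43 and 84 pairs at least 10-fold apart, and pairs without a same-strand feature of at least 50% of the reads, which gave r -0.037, rho 0.004, a median absolute log2 ratio of 1.31 and 119 such pairs. In all of these r stayed below 0, and the cause of the shifts was not tested. The count of members called between the libraries was 36 without a count minimum and 51 with at least 100 reads. No paired analysis was possible because there is only 1 group and hence no contrast. Low depth limits the pairs with a gene under 10 reads, and levels rest on 2 libraries.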

Other observations

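Genes of cytoplasmic ribosomal proteins, taken by their RefSeq product (40S and 60S proteins, stalk proteins and ubiquitin fusions), were looked at after their values were seen. Of 141 such coding genes, 19 (13.5%) were in an overlapping pair, while 29.1% of all coding genes on the chromosomes were. In all 19 the pair was at least 10-fold apart in both libraries with the ribosomal gene higher, which accounts for 19 of the 135 pairs past that limit (18.0% of the pairs, against 31.3% of convergent pairs without overlap), and 0 pairs joined a pair of them. Among the partners, wis4 was at 3.67 and 3.89 CPM per kb beside rpl3001 at 1746 and 1665, and arp9 was at 5.01 and 5.63 CPM per kb beside rps1502 at 1413 and 1314, while apc5 was at 1.35 and 1.38 CPM per kb beside rpl2102 and new14 at 0.32 and 0 beside rps1701. The upper quartile of all members was 10.9 and 11.7 CPM per kb, so ribosomal genes at levels like these would be 10-fold above most neighbours. Any part of the overlap in the gap was not tested, and the same share was not taken for ribosomal genes in pairs without overlap. Neither the share of these genes in pairs nor the level of their partners was tested.

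In 9 pairs coding sequence of both strands lay on the same bases, and 1 of these joined a gene of the other mating type to a gene of metabolism. his6, an enzyme gene of histidine synthesis, held 187 and 189 reads, against 9 and 14 for map3, the receptor of the M-factor pheromone that is used by P cells and not by the h- cells sequenced here, with an overlap of 1755 nt. Both genes of the other 8 pairs had at least 30 reads in each library. Among them rce1 (62 and 71 reads) faced rfc4 (160 and 179), pex3 (85 and 72) faced ure6 (101 and 93), and srr1 (73 and 99) faced pol5 (174 and 189).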
